A study of Homo sapiens with 8 samples.

Results

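The unfolded protein response and the folding machinery of the endoplasmic reticulum (ER) were followed through 35 genes, listed by function: ER chaperones and their co-chaperones, disulfide isomerases, stress sensors and effectors, factors of ER-associated degradation, and components of protein translocation and COPII transport. The list was chosen with earlier results of these data known, so its shares of called genes beside all genes are descriptive. All 35 symbols matched 1 row each of the 27140 genes in the count table, and all 35 were among the 15289 genes with enough reads to test. Gene counts came from 8 poly(A) RNA-seq libraries of LNCaP, a human prostate adenocarcinoma line, in 4 groups of 2. The mutant rescue (shMETTL3_MT) carried a METTL3 hairpin and a hairpin-resistant, catalytically dead METTL3. The wild-type rescue (shMETTL3_WT) carried the same kind of hairpin and hairpin-resistant wild-type METTL3. The knockdown (shMETTL3_vector) carried the METTL3 hairpin and the vector, and the control (shCtrl_vector) a control hairpin and the vector. All 4 were stable lines made by lentiviral transduction, with puromycin (1 µg/ml) for selection, so the control too carried a hairpin and had been through the selection. METTL3 is the catalytic subunit of the enzyme that writes N6-methyladenosine (m6A) on mRNA. The labels give neither the amino acid change of the mutant, nor the promoters of the constructs, nor whether each line was a clone or a pool, nor whether the 2 libraries of a group came from separate cultures. The p-values therefore measure the spread between these libraries, which may be technical. That spread was close to counting noise: chi-square per degree of freedom was 1.21 (mutant rescue) to 1.37 (wild-type rescue), where counting alone gives 1.

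Proteins that enter the secretory pathway fold in the ER lumen with the help of BiP (HSPA5), the Hsp90-type chaperone GRP94 (HSP90B1), the lectins calreticulin and calnexin, and enzymes that form and shuffle disulfide bonds. When unfolded proteins accumulate, the sensors IRE1 (ERN1), PERK (EIF2AK3) and ATF6 are released from BiP: IRE1 splices XBP1 mRNA into the form that encodes an active transcription factor, ATF6 is cleaved to a transcription factor, and PERK phosphorylates eIF2α, which slows translation while ATF4 mRNA is translated more. Their targets include chaperones and the degradation pathway that returns misfolded proteins to the cytosol for the proteasome. Luminal prostate cells secrete large amounts of protein, and this machinery serves that load.

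The libraries held 15200343 to 17893241 counts, and 2 libraries against 2 cannot give a two-sided exact permutation p below 0.333, so calls rest on a model fitted across all genes. METTL3 itself had 333 and 334 CPM in the mutant rescue, 309 and 325 CPM in the wild-type rescue, 26.2 and 31.3 CPM in the knockdown, and 68.4 and 68.5 CPM in the control. The knockdown was thus below the control, as labelled. Both rescues exceeded the control level rather than restoring it, at 4.88 times the control in the mutant rescue and 4.64 times in the wild-type rescue. The LNCaP marker KLK3 had 3105 and 3067 CPM in the mutant rescue, 2952 and 3016 CPM in the wild-type rescue, 2598 and 2636 CPM in the knockdown, and 3705 and 3683 CPM in the control. The 9 luminal LNCaP markers, all of them detected, summed to 7773 to 7805 CPM in the mutant rescue, 7809.9 to 7893 CPM in the wild-type rescue, 7592 to 7663 CPM in the knockdown and 9434 to 9482 CPM in the control. Of 13 markers of other cell types, COL1A1 made up nearly all of a sum between 81.4 and 108 CPM, and each of the other 12 stayed at or below 3.47 CPM. The mitochondrial ribosomal RNA genes took 2.71 to 2.72% of mutant rescue counts, 2.74 to 2.79% of wild-type rescue counts, 2.44 to 2.48% of knockdown counts and 3.22 to 3.27% of control counts. Fold changes tracked gene length in the wild-type rescue against the knockdown (Spearman rho of -0.346 across 15289 genes, which are not independent), less in the other comparisons (-0.179 to 0.128). The part of the marker and ribosomal RNA differences in the results below was not tested.

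On a scale that corrects for gene length and library size (TPM), the 5 most abundant of the 35 mRNAs encode chaperones and disulfide isomerases. Calreticulin led with a mean of 2408 TPM over the 8 libraries, ahead of HSP90B1 with 1689 TPM and P4HB, the classical protein disulfide isomerase, with 1018 TPM. HSPA5 averaged 502 TPM and the disulfide isomerase PDIA3 527 TPM. The 3 sensors stood near the bottom of the order, with ATF6 at 23.9, ERN1 at 23.9 and EIF2AK3 at 12.6 TPM, while XBP1, the mRNA on which IRE1 acts, averaged 244 TPM. DERL3, a derlin known mainly from secretory tissues, was lowest at 4.96 TPM. Together the 35 genes took 0.976 to 1.03% of all counts. Their sum was 10278 ± 74.1 CPM in the mutant rescue, 9891 ± 7.61 CPM in the wild-type rescue, 9801 ± 37.7 CPM in the knockdown and 9923 ± 0.885 CPM in the control (SD, n = 2 libraries each). In bulk RNA, fewer cells of a type and less RNA per cell cannot be told apart.

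**Figure D1:**
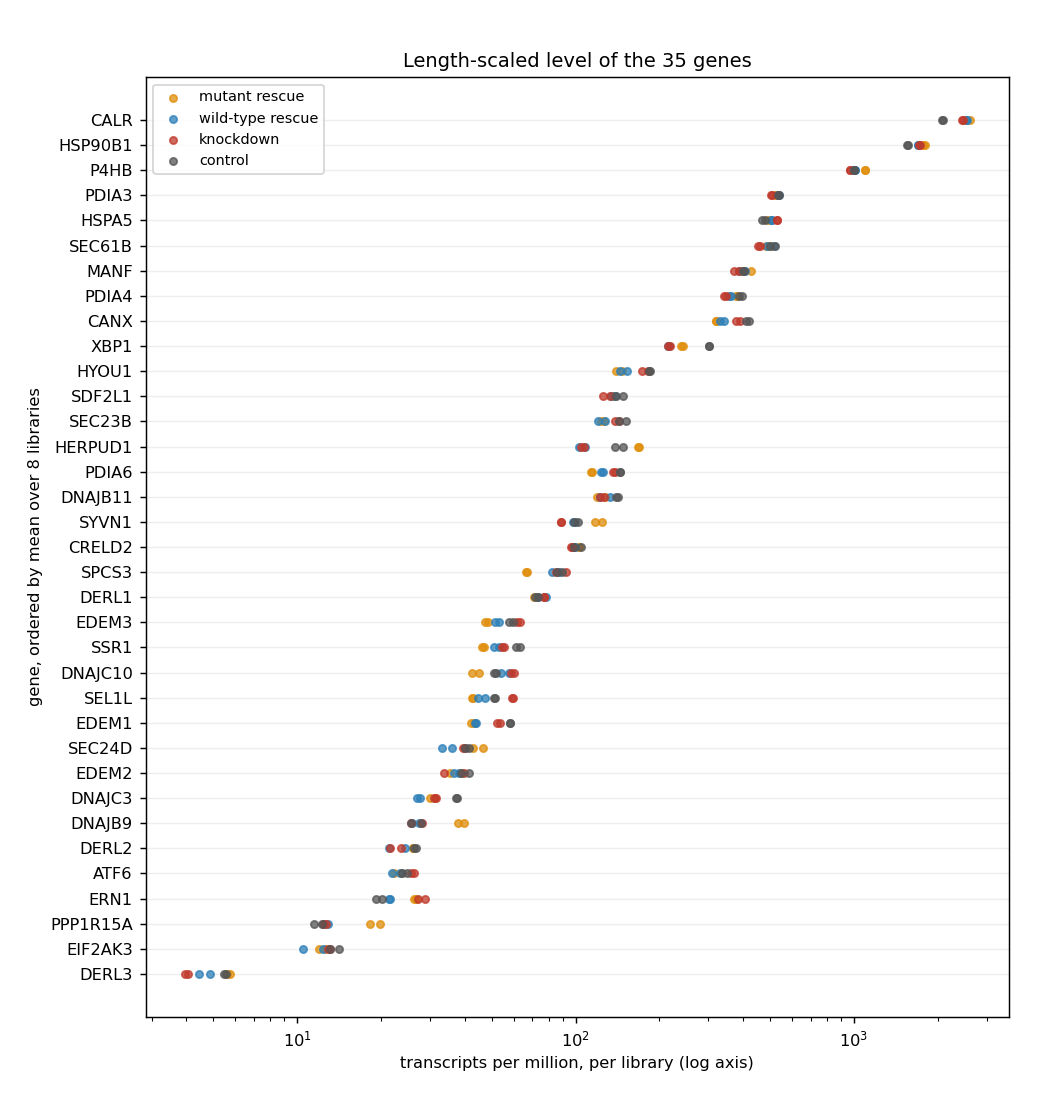
Length-scaled level of each of the 35 genes in TPM (log axis), 1 point per library coloured by group, with genes ordered by their mean over 8 libraries. Levels run from 4.96 TPM for DERL3 to 2408 TPM for CALR on average, and most genes' points lie close together across the 4 groups.

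Promoter sequence is shown before the comparisons, because the DNA elements of this response were worked out on promoters of genes in this list. The ER stress response element (ERSE) is CCAAT and CCACG with 9 bases between them, bound by NF-Y at its CCAAT end and by ATF6 at its CCACG end. ERSE-II is ATTGG and CCACG with 1 base between them, and the unfolded protein response element (UPRE) is TGACGTGG. RefSeq promoter windows (GRCh38.p14, 250 bases before to 50 after each annotated start, 35116 windows of 27305 genes) were searched for these letters on both strands. A window was found for 31 of the 35 genes (not for DERL1, DERL3, PDIA3 and SEC24D). ERSE was present in 7 of those 31 (22.6%), against 0.0916% of all genes with a window and 0.0769% of windows: CALR, CANX, CRELD2, HSP90B1, HSPA5, PDIA6 and XBP1. ERSE-II was present in 3 (9.68%, against 0.0696% of genes): HERPUD1, HYOU1 and SDF2L1. UPRE was present in 2 (6.45%, against 0.927% of genes): DNAJC10 and HYOU1, in HYOU1 overlapping its ERSE-II. Since the elements were defined on some of these promoters, their share here is a description and no independent result. The 4 sequences below run from position -200 to -1 before the start, with the element in capitals. HSPA5 (chr9:125241344-125241543, minus strand) is the standard reporter of the response and holds 1 ERSE at -66 to -48. HSP90B1 (chr12:103930210-103930409, plus strand) holds 2, at -194 to -176 and, on the opposite strand, at -89 to -71. XBP1 (chr22:28800570-28800769, minus strand) holds 1 at -52 to -34, and HERPUD1 (chr16:56931942-56932141, plus strand) holds an ERSE-II at -117 to -107.
HSPA5: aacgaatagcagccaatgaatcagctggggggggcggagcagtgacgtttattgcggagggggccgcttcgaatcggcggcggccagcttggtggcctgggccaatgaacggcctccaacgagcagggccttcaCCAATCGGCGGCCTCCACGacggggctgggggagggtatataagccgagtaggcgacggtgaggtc
HSP90B1: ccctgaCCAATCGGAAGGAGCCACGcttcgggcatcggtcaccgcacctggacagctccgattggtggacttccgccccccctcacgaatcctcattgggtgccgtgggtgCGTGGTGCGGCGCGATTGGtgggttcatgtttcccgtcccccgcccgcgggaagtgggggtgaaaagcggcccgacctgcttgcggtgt
XBP1: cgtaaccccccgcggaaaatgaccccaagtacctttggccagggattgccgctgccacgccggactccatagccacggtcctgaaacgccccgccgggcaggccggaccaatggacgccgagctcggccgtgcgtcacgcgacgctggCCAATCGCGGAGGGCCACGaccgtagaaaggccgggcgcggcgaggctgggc
HERPUD1: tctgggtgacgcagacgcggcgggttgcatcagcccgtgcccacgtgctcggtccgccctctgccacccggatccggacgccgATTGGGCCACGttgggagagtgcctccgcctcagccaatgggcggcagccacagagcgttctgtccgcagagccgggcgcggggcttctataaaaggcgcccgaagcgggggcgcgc

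The knockdown was compared with the control to ask how these mRNAs differ in the line with reduced METTL3, at 0.418 of the control. Lower METTL3, other effects of the hairpin and differences between the lines cannot be told apart here. More of them fell than rose: XBP1, HERPUD1, DNAJC3, the 4 disulfide isomerases and most ER-associated degradation factors were lower in the knockdown, while ERN1, SEL1L and the abundant chaperones CALR, HSPA5 and HSP90B1 were higher. A gene is called where its edgeR quasi-likelihood p, adjusted by Benjamini-Hochberg over the 15289 tested genes, is below 0.05. By that rule 21 of 35 were lower (60.0%, against 25.1% of all tested genes) and 6 higher (17.1%, against 22.9%), so 27 were called in either direction (77.1%, against 48.0%). The median log2 fold change was -0.12 over the 35 and -0.011 over all tested genes, and values ran from -0.52 to 0.46. Libraries of these 2 groups did not overlap in 30 of the 35 and in 11086 of the 15289 tested genes. Between the mutant and the wild-type rescue the numbers were 22 and 10352, so a lack of overlap was common among all genes. Calls are more frequent among abundant genes: of the 8706 genes that averaged 20 CPM or more, a limit chosen after the values were seen, 32.3% were lower and 28.4% higher, against 20 and 6 of the 33 listed genes above that limit (60.6 and 18.2%). Of the 27 calls, 21 held when each library was left out in turn. The 6 that did not were HYOU1, SDF2L1, CRELD2, MANF, EDEM2 and SEC23B, all lower, and knockdown replicate 1 was among the deciding libraries for each.

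The wild-type rescue was compared with the control and with the knockdown to ask how the line with hairpin-resistant METTL3 differs from each. XBP1, DNAJC3, HERPUD1, EDEM1, HYOU1 and CANX were lower in it than in the control, and CALR, HSP90B1, DNAJC10 and HSPA5 higher. Against the control, the wild-type rescue had 16 of 35 lower (45.7%, against 25.5% of all tested genes) and 4 higher (11.4%, against 23.8%), 20 in either direction (57.1%, against 49.3%), with a median of -0.10. Against the knockdown, the wild-type rescue had 7 higher (20%, against 10.8%) and 11 lower (31.4%, against 13.2%), 18 in either direction (51.4%, against 24.0%), with a median of 0.029 beside 0.0060 over all tested genes. With the length trend removed, the median of the 35 was 0.0057 and that of all tested genes 0.0014. The higher genes were SYVN1, SEC61B, PDIA3, P4HB, PDIA4, MANF and CALR, and ERN1, SEL1L, EDEM1, EDEM3 and HYOU1 were the lower ones of largest size. With the length trend removed, SEC61B, MANF and CALR were no longer called (edgeR adjusted p of 0.381, 0.997 and 0.378). None of the 35 was called past 0.5 on the log2 scale in either comparison. The wild-type rescue shares its libraries between these 2 comparisons, and 16 of 20 and 13 of 18 calls held without each library. Among the genes of 20 CPM or more, 33.8% were lower and 29.1% higher against the control, beside 48.5 and 12.1% of the 33 listed genes, and 16.2% were higher and 20.5% lower against the knockdown, beside 21.2 and 33.3%.

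The mutant and the wild-type rescue were compared to ask what differs between the lines with catalytically dead and wild-type METTL3. Catalytic activity and other differences between these lines cannot be told apart. HERPUD1, PPP1R15A and DNAJB9 were higher in the mutant rescue, with SEC24D, ERN1 and SYVN1 next, and SPCS3, DNAJC10, SSR1, PDIA6 and EDEM3 were lower. That made 14 of 35 higher (40.0%, against 21.0% of all tested genes) and 5 lower (14.3%, against 20.3%), 19 in either direction (54.3%, against 41.3%, a share close to the 56.1% called among genes with at least 20 CPM). Among the genes of 20 CPM or more, 30.4% were higher and 25.8% lower, beside 39.4 and 15.2% of the 33 listed genes. The median log2 fold change was 0.047 and the range -0.32 to 0.71. Against the knockdown, the mutant rescue had 17 higher (48.6%, against 25.9%) and 10 lower (28.6%, against 25.8%), 27 in either direction (77.1%, against 51.7%), with a median of 0.091. Against the control it had 10 higher (28.6%, against 29.1%) and 13 lower (37.1%, against 29.7%), 23 in either direction (65.7%, against 58.8%), with a median of -0.023. Among the genes of 20 CPM or more, 34.7% were higher and 32.4% lower in the mutant rescue against the knockdown, beside 45.5 and 30.3% of the 33 listed genes, and 36.3% were higher and 35.9% lower against the control, beside 27.3 and 39.4%. With the length trend removed, the median of the 35 was 0.051 against the knockdown and -0.011 against the control. Without each library in turn, 15 of 19, 25 of 27 and 21 of 23 calls held in these 3 comparisons.

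**Figure D2:**
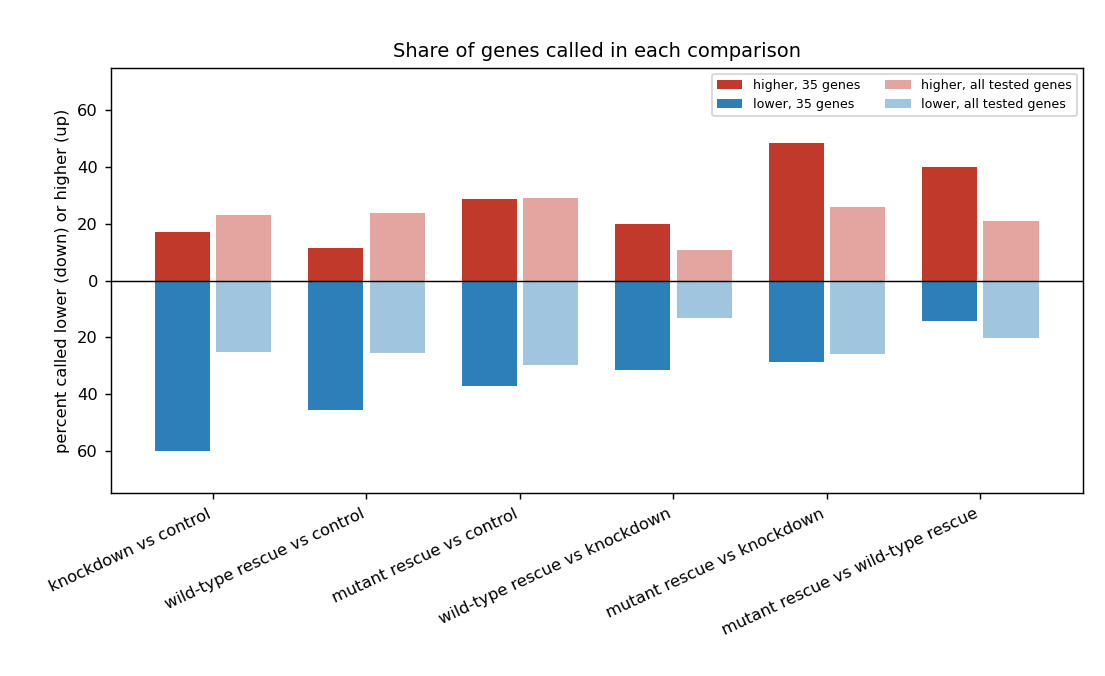
Percent of genes called higher (bars up) and lower (bars down) in each of 6 comparisons, for the 35 genes (dark) and for all 15289 tested genes (light). The dark lower bar of the knockdown against the control reaches 60.0%, beside 25.1% for all genes, and the dark higher bars of the mutant rescue against the knockdown and against the wild-type rescue reach 48.6 and 40.0%.

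**Figure D3:**
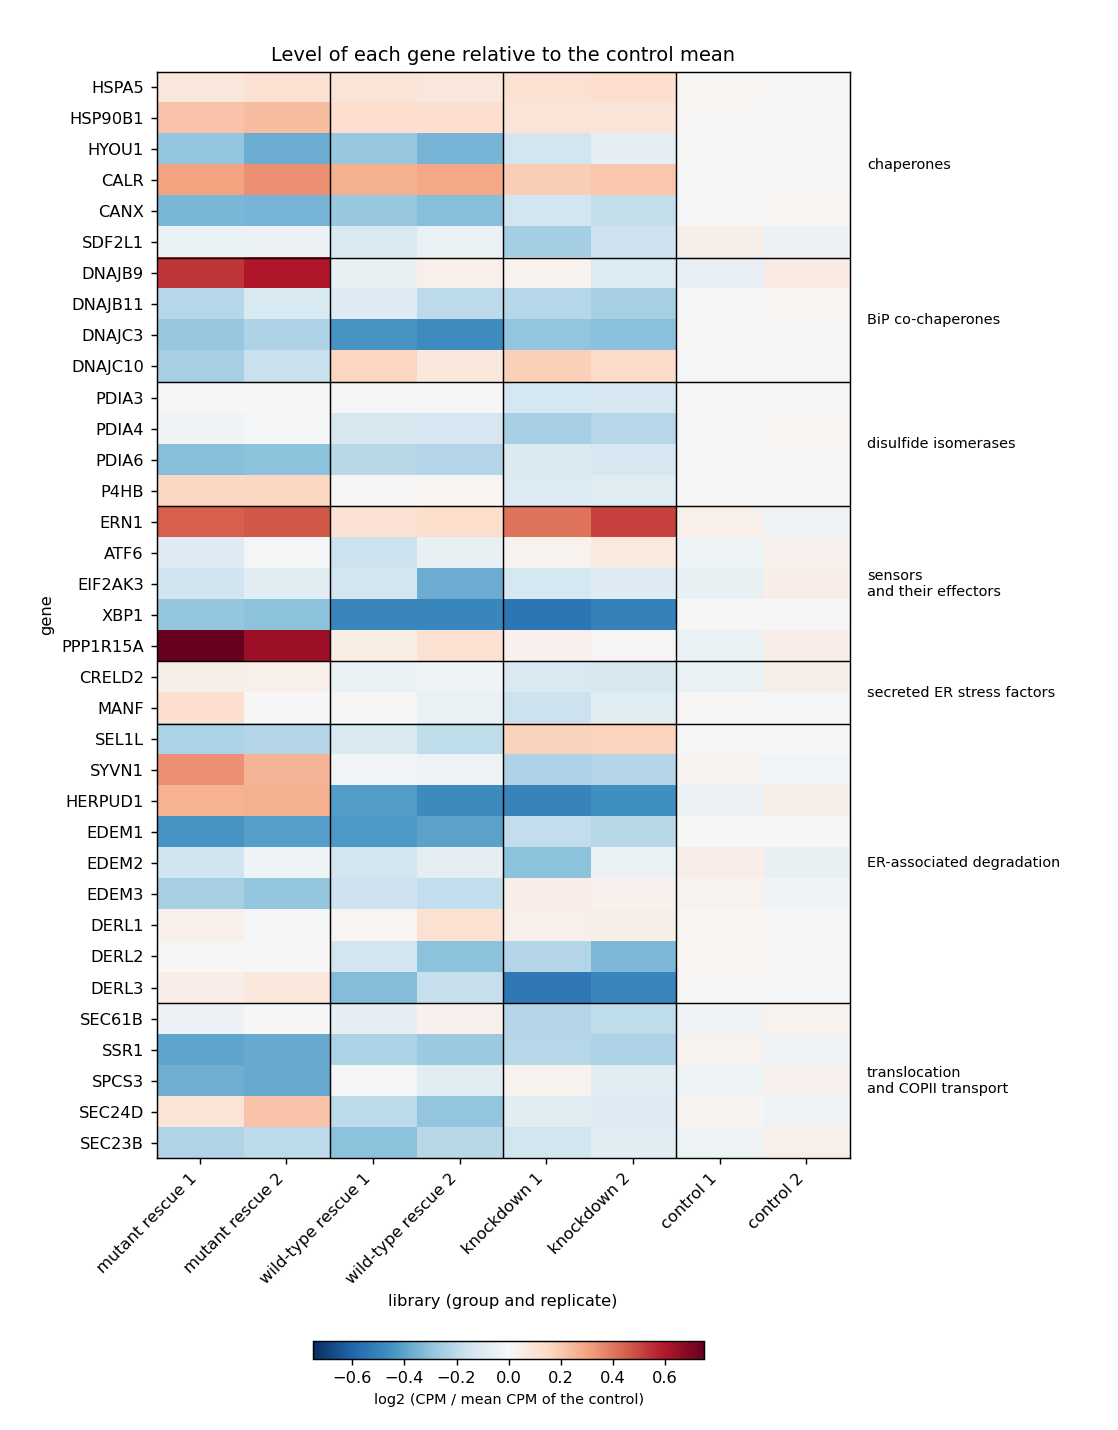
Level of each of the 35 genes in each library (columns) as the log2 ratio of its CPM to the mean of the 2 control libraries, with red above and blue below that mean and genes grouped by role. DNAJB9 and PPP1R15A are deep red in the mutant rescue columns alone, and XBP1 and DNAJC3 are blue in all 6 libraries that carry the METTL3 hairpin.

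Among the 6 chaperones, the 3 most abundant were higher in each line with the METTL3 hairpin than in the control. HSPA5 had 765 and 783 CPM in the mutant rescue, 773 and 768 CPM in the wild-type rescue, 781 and 787 CPM in the knockdown, and 731 and 714 CPM in the control. Every hairpin library was above both control libraries, and the mutant rescue overlapped both other hairpin lines. HSPA5, which encodes BiP, changed by 0.099 (SE 0.020) in the mutant rescue, 0.092 (SE 0.020) in the wild-type rescue and 0.12 (SE 0.020) in the knockdown on the log2 scale, each against the control (edgeR adjusted p of 5.60e-06, 3.30e-05 and 1.18e-07). The hairpin lines did not differ from each other past the threshold (edgeR adjusted p of 0.793, 0.457 and 0.375). HSP90B1 had 1981 and 2015 CPM in the mutant rescue, 1865 and 1869.6 CPM in the wild-type rescue, 1828 and 1828 CPM in the knockdown, and 1723 and 1700.3 CPM in the control. The 4 groups did not overlap and the mutant rescue was highest. HSP90B1 was 0.098 (SE 0.017) higher on the log2 scale in the mutant rescue than in the wild-type rescue and 0.13 (SE 0.017) higher than in the knockdown, and 0.095 (SE 0.018) higher in the knockdown than in the control. CALR had 1888 and 1945 CPM in the mutant rescue, 1839 and 1869.7 CPM in the wild-type rescue, 1737 and 1763 CPM in the knockdown, and 1528 and 1533 CPM in the control. Calreticulin, the soluble lectin that binds newly made glycoproteins, changed by 0.32 (SE 0.018), 0.28 (SE 0.018) and 0.19 (SE 0.018) against the control in the same order of groups, and it was called in all 6 comparisons. Its small rise in the mutant rescue over the wild-type rescue (0.047, SE 0.018) was no longer called without mutant rescue replicate 2 (edgeR adjusted p = 0.390) or replicate 1 of the wild-type rescue (0.175), nor was its rise in the wild-type rescue over the knockdown (0.084, SE 0.018) once the length trend was removed (0.378).

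Calnexin and HYOU1 were lower in the hairpin lines than in the control. CANX had 622 and 619 CPM in the mutant rescue, 647 and 632 CPM in the wild-type rescue, 714 and 696 CPM in the knockdown, and 783 and 796 CPM in the control. CANX, the membrane-bound partner of calreticulin in the same folding cycle, was lower in every hairpin library than in either control library, with log2 fold changes of -0.35 (SE 0.020), -0.30 (SE 0.020) and -0.16 (SE 0.020) in the mutant rescue, wild-type rescue and knockdown. HYOU1 had 268 and 254 CPM in the mutant rescue, 271 and 259 CPM in the wild-type rescue, 298 and 314 CPM in the knockdown, and 329 and 329.8 CPM in the control. HYOU1, a large Hsp70-type protein that exchanges nucleotide on BiP, fell by 0.34 (SE 0.026) in the mutant rescue and by 0.32 (SE 0.026) in the wild-type rescue against the control, and both rescues were also below the knockdown (-0.23, SE 0.026 and -0.21, SE 0.026). Its smaller difference between knockdown and control (-0.11, SE 0.025) was no longer called without knockdown replicate 1 (edgeR adjusted p = 0.0757). SDF2L1, which forms complexes with the co-chaperone DNAJB11, ranged from 40.6 to 49.8 CPM over the 8 libraries. It was not called against the control in the mutant rescue (-0.046, SE 0.055, edgeR adjusted p = 0.493) or the wild-type rescue (-0.080, SE 0.055, 0.226). With the length trend removed it was called lower in both (-0.13, SE 0.055, edgeR adjusted p = 0.0304 and -0.17, SE 0.055, 0.00464). Its lower level in the knockdown against the control (-0.21, SE 0.056) lost its call without knockdown replicate 1 (edgeR adjusted p = 0.0681) or control replicate 1 (0.0597), and its higher level in the mutant rescue against the knockdown (0.16, SE 0.056) lost it without knockdown replicate 1 (0.216) or mutant rescue replicate 2 (0.0589), in DESeq2 (0.121) and with the length trend removed (0.445).

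The 10 genes whose windows hold an ERSE or ERSE-II did not move as a block. In the knockdown against the control, 3 were higher (CALR, HSPA5 and HSP90B1) and 7 lower, and of the 21 genes whose window holds neither, 3 were higher and 12 lower. Over all tested genes, 22.9% were higher and 25.1% lower. Of the 7, HYOU1, SDF2L1 and CRELD2 were among the calls above that did not hold with each library left out. In the mutant relative to the wild-type rescue, 4 of the 10 were higher and 1 lower, beside 9 and 4 of the 21, and 21.0 and 20.3% of all tested genes. XBP1 and HERPUD1, whose elements are printed above, fell in the knockdown by far more than HSPA5 and HSP90B1 rose.

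The 4 J-domain co-chaperones of BiP each followed a pattern of their own. DNAJB9 had 37.8 and 39.6 CPM in the mutant rescue, 25.1 and 26.8 CPM in the wild-type rescue, 26.5 and 24.3 CPM in the knockdown, and 24.95 and 27.2 CPM in the control. DNAJB9, an inducible co-chaperone that holds IRE1 inactive through BiP, was high in both mutant rescue libraries, and the other 3 groups overlapped. It was 0.57 (SE 0.068) higher on the log2 scale in the mutant rescue than in the wild-type rescue (edgeR adjusted p = 5.82e-13), 0.60 (SE 0.069) higher than in the knockdown and 0.57 (SE 0.069) higher than in the control. Its difference between knockdown and control was -0.034 (SE 0.075) and not called (edgeR adjusted p = 0.742). DNAJC10 had 114 and 121 CPM in the mutant rescue, 151 and 143 CPM in the wild-type rescue, 153 and 149.6 CPM in the knockdown, and 134 and 136 CPM in the control. DNAJC10, a disulfide reductase of ER-associated degradation, was low in the mutant rescue and high in the knockdown and the wild-type rescue, with no mutant rescue library reaching the control. It fell in the mutant rescue by 0.32 (SE 0.035) against the wild-type rescue and by 0.20 (SE 0.036) against the control, and rose in the knockdown by 0.16 against the control. Its rise in the wild-type rescue (0.12, SE 0.034) was no longer called without wild-type rescue replicate 1 (edgeR adjusted p = 0.103).

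DNAJC3 had 65.8 and 68.4 CPM in the mutant rescue, 59.04 and 57.9 CPM in the wild-type rescue, 65.3 and 64.6 CPM in the knockdown, and 80.7 and 79.7 CPM in the control. DNAJC3, a co-chaperone first described as an inhibitor of PERK and PKR, was lower in all 6 hairpin libraries than in the control, and lowest in the wild-type rescue. Its log2 fold changes against the control were -0.26 (SE 0.047) in the mutant rescue, -0.46 (SE 0.048) in the wild-type rescue and -0.31 (SE 0.047) in the knockdown, and the mutant rescue stood 0.20 (SE 0.049) above the wild-type rescue. The wild-type rescue was -0.15 (SE 0.049) against the knockdown, a call lost without wild-type rescue replicate 2 (edgeR adjusted p = 0.109) or knockdown replicate 1 (0.0888), in DESeq2 (0.0819) and with the length trend removed (0.194). The antisense gene DNAJC3-AS1 had 150 to 238 counts per library beside 916 to 1278 for DNAJC3. The library kit keeps strand, but the strand setting of the counting is not given in the sources used here, so reads of the pair may be mixed. DNAJB11, which binds unfolded chains and passes them to BiP, ranged from 77.2 to 92.5 CPM and was lower in the knockdown than in the control (-0.23, SE 0.044). Its falls in the rescues (-0.16, SE 0.044 and -0.15, SE 0.043 against the control in the mutant and the wild-type rescue) lost their calls without mutant rescue replicate 1 (edgeR adjusted p = 0.0690) and without wild-type rescue replicate 2 (0.136).

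The 4 disulfide isomerases were all lower in the knockdown than in the control, and 3 of them were higher in both rescues than in the knockdown. PDIA4 had 436 and 439.9 CPM in the mutant rescue, 408 and 406 CPM in the wild-type rescue, 374 and 382 CPM in the knockdown, and 439.7 and 448 CPM in the control. PDIA4, a large isomerase with several thioredoxin-like domains, was lowest in the knockdown, and its libraries did not overlap between the hairpin lines. It changed by -0.23 (SE 0.022) in the knockdown against the control, by 0.11 (SE 0.023) in the wild-type rescue against the knockdown and by 0.10 (SE 0.022) in the mutant relative to the wild-type rescue, where it came to -0.020 (SE 0.022) against the control, not called (edgeR adjusted p = 0.454). P4HB had 1107 and 1103 CPM in the mutant rescue, 997 and 1001 CPM in the wild-type rescue, 923 and 930.2 CPM in the knockdown, and 989.8 and 994 CPM in the control. P4HB was lowest in the knockdown and highest in the mutant rescue, which stood 0.16 (SE 0.019) above the control and 0.15 (SE 0.019) above the wild-type rescue (edgeR adjusted p of 2.76e-13 and 1.37e-11). The wild-type rescue was 0.11 (SE 0.019) above the knockdown and differed from the control by 0.010 (SE 0.019), not called.

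PDIA3 had 629 and 629 CPM in the mutant rescue, 625 and 631 CPM in the wild-type rescue, 576 and 577 CPM in the knockdown, and 633 and 628 CPM in the control. PDIA3, the isomerase that works with calreticulin and calnexin on glycoproteins, fell in the knockdown by 0.13 (SE 0.020) against the control, and both rescues were higher than the knockdown by 0.13 (SE 0.020) and 0.12 (SE 0.020). Its libraries in both rescues overlapped those of the control. Reads of its processed pseudogene PDIA3P1 (133 to 179 counts beside 9078 to 11425) could have been split between the copies. PDIA6 had 155 and 156 CPM in the mutant rescue, 167 and 166 CPM in the wild-type rescue, 179 and 176 CPM in the knockdown, and 193 and 193 CPM in the control. PDIA6, which acts on disulfides of IRE1 and PERK as well as of clients, was below the control in each hairpin line, lowest in the mutant rescue, and was called in all 6 comparisons. It fell by 0.31 (SE 0.031) in the mutant rescue, by 0.21 (SE 0.030) in the wild-type rescue and by 0.12 (SE 0.030) in the knockdown, each against the control. The step between the rescues (-0.10, SE 0.031) was not called in DESeq2 (adjusted p = 0.0537), and the step between wild-type rescue and knockdown (-0.094, SE 0.030) neither there (0.0744) nor without knockdown replicate 1 (edgeR adjusted p = 0.122) or replicate 2 of the wild-type rescue (0.0939).

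Of the 3 sensors, ERN1 changed most. ERN1 had 41.4 and 41.9 CPM in the mutant rescue, 32.7 and 33.2 CPM in the wild-type rescue, 40.2 and 43.2 CPM in the knockdown, and 31.1 and 29.5 CPM in the control. The mutant rescue and the knockdown were high and overlapped, and the wild-type rescue was closer to the control. ERN1, which encodes the kinase and RNase IRE1, rose by 0.46 in the mutant rescue and by 0.46 in the knockdown against the control (SE 0.064 and 0.063; edgeR adjusted p of 2.05e-10 and 1.85e-10). The wild-type rescue differed from the control by 0.12 (SE 0.066), not called (edgeR adjusted p = 0.128), and was lower than the knockdown, with a log2 fold change of -0.34 (SE 0.061), while the mutant rescue was above the wild-type rescue by 0.34 (SE 0.062). ATF6 had 65.96 and 69.8 CPM in the mutant rescue, 63.03 and 67.9 CPM in the wild-type rescue, 71.8 and 73.96 CPM in the knockdown, and 68.9 and 71.9 CPM in the control. ATF6, the membrane-bound precursor of a transcription factor, overlapped between neighbouring groups, with the knockdown on top and the wild-type rescue lowest. Its 1 call, -0.15 (SE 0.048) in the wild-type rescue against the knockdown, was lost without wild-type rescue replicate 1 (edgeR adjusted p = 0.224) or knockdown replicate 2 (0.0976), in DESeq2 (0.0814) and with the length trend removed (0.540).

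EIF2AK3 had 22.8 and 23.9 CPM in the mutant rescue, 22.9 and 19.5 CPM in the wild-type rescue, 23.1 and 23.6 CPM in the knockdown, and 24.4 and 26.2 CPM in the control. EIF2AK3 encodes PERK, and wild-type rescue replicate 2 was its lowest library. Its 1 call, -0.26 (SE 0.080) in the wild-type rescue against the control, was lost without that library (edgeR adjusted p = 0.240), without control replicate 2 (0.0846) and in DESeq2 (0.0694). PPP1R15A had 18.5 and 17.00 CPM in the mutant rescue, 11.3 and 11.8 CPM in the wild-type rescue, 11.2 and 10.99 CPM in the knockdown, and 10.6 and 11.3 CPM in the control. PPP1R15A encodes GADD34, the stress-induced subunit that brings a phosphatase to eIF2α and so reverses the action of PERK. Both mutant rescue libraries were high, and no other library reached 12 CPM. The mutant rescue exceeded the wild-type rescue by 0.61 (SE 0.10), the knockdown by 0.68 (SE 0.10) and the control by 0.70 (SE 0.10) on the log2 scale (edgeR adjusted p of 8.36e-08, 2.78e-09 and 1.12e-09). Knockdown and control differed by 0.023 (SE 0.11), not called.

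XBP1 had 173 and 171 CPM in the mutant rescue, 151 and 151 CPM in the wild-type rescue, 145 and 149 CPM in the knockdown, and 212 and 211 CPM in the control. All 6 hairpin libraries lay below both control libraries, and the mutant rescue lay above the wild-type rescue and the knockdown with no overlap. XBP1 fell by 0.30 in the mutant rescue, by 0.49 in the wild-type rescue and by 0.52 in the knockdown against the control (SE 0.030, 0.030 and 0.030; edgeR adjusted p of 2.11e-17, 2.76e-33 and 4.06e-36). The mutant rescue was 0.19 (SE 0.031) above the wild-type rescue and 0.23 (SE 0.031) above the knockdown, whereas the wild-type rescue and the knockdown differed by 0.037 (SE 0.032), not called (edgeR adjusted p = 0.446). A gene count adds up spliced and unspliced XBP1 mRNA, so the activity of IRE1 on it was not measured.

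CRELD2 and MANF encode small ER proteins that are secreted under stress. MANF had 162 and 149 CPM in the mutant rescue, 149 and 144 CPM in the wild-type rescue, 133 and 139 CPM in the knockdown, and 149 and 148 CPM in the control. The knockdown was lowest, and the other 3 groups overlapped. MANF was 0.19 (SE 0.034) higher in the mutant rescue than in the knockdown (edgeR adjusted p = 4.61e-07). Its other calls were less secure: -0.13 (SE 0.034) in the knockdown against the control was lost without knockdown replicate 1 (edgeR adjusted p = 0.0780), 0.11 (SE 0.034) in the wild-type rescue against the knockdown without knockdown replicate 1 (0.293) or replicate 1 of the wild-type rescue (0.158), and 0.085 (SE 0.034) in the mutant relative to the wild-type rescue without mutant rescue replicate 1 (0.705) or replicate 2 of the wild-type rescue (0.306). With the length trend removed, the wild-type rescue against the knockdown came to an edgeR adjusted p of 0.997. In that setting the wild-type rescue was called lower than the control (-0.10, SE 0.033, edgeR adjusted p = 0.00661), beside -0.022, not called, with the trend left in. DESeq2 gave an adjusted p of 0.144 for the wild-type rescue against the knockdown and 0.181 between the rescues. CRELD2 ranged from 62.1 to 69.6 CPM. Its 2 calls, 0.16 (SE 0.049) in the mutant rescue against the knockdown and -0.12 (SE 0.049) in the knockdown against the control, were both lost in DESeq2 (adjusted p of 0.0547 and 0.217). The knockdown call was also lost without knockdown replicate 1 (edgeR adjusted p = 0.106), knockdown replicate 2 (0.104) or control replicate 2 (0.368), and the mutant rescue call with the length trend removed (0.0707).

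ER-associated degradation is built around the ubiquitin ligase SYVN1 (HRD1) and its partner SEL1L, with HERPUD1 at the ligase, mannosidase-like EDEM proteins that mark clients, and derlins in the membrane. HERPUD1 had 127 and 127 CPM in the mutant rescue, 79.1 and 75.98 CPM in the wild-type rescue, 74.8 and 77.1 CPM in the knockdown, and 102 and 109 CPM in the control. The mutant rescue was above every control library, and the wild-type rescue and the knockdown were below every one. HERPUD1 was 0.71 (SE 0.041) higher on the log2 scale in the mutant rescue than in the wild-type rescue and 0.74 (SE 0.041) higher than in the knockdown (edgeR adjusted p of 2.24e-36 and 2.33e-38), and 0.26 (SE 0.039) higher than in the control. It fell by 0.45 (SE 0.042) in the wild-type rescue and by 0.48 (SE 0.042) in the knockdown against the control, and those 2 groups overlapped.

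SYVN1 had 149 and 141 CPM in the mutant rescue, 116 and 115 CPM in the wild-type rescue, 100.4 and 101 CPM in the knockdown, and 119.8 and 116 CPM in the control. SYVN1 was high in the mutant rescue and low in the knockdown, and the wild-type rescue lay next to the control. It was 0.52 (SE 0.037) higher in the mutant rescue than in the knockdown, 0.33 (SE 0.036) higher than in the wild-type rescue and 0.30 (SE 0.036) higher than in the control, and -0.23 (SE 0.038) in the knockdown against the control. The wild-type rescue was 0.20 (SE 0.038) above the knockdown and -0.029 (SE 0.037) from the control, not called. SEL1L had 142 and 144 CPM in the mutant rescue, 155 and 147 CPM in the wild-type rescue, 189 and 189 CPM in the knockdown, and 167 and 169 CPM in the control. SEL1L, which stabilises SYVN1, was highest in the knockdown and lowest in the mutant rescue. Against the control it changed by -0.23 (SE 0.032) in the mutant rescue, -0.16 (SE 0.032) in the wild-type rescue and 0.17 (SE 0.031) in the knockdown (edgeR adjusted p of 2.12e-10, 1.09e-05 and 6.22e-07). The ratio of SYVN1 to SEL1L, both in TPM, was 2.95 and 2.74 in the mutant rescue libraries, 2.11 and 2.20 in the wild-type rescue libraries, 1.49 and 1.505 in the knockdown libraries, and 2.01 and 1.94 in the control libraries. The 4 groups did not overlap in this ratio, which was chosen after the values were seen.

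EDEM1 had 102 and 104 CPM in the mutant rescue, 103 and 104 CPM in the wild-type rescue, 122 and 119.7 CPM in the knockdown, and 138 and 138 CPM in the control. EDEM1 fell by 0.43 (SE 0.037) in the mutant rescue, by 0.42 (SE 0.036) in the wild-type rescue and by 0.19 (SE 0.036) in the knockdown against the control, and both rescues lay below the knockdown (-0.23, SE 0.038 and -0.22, SE 0.037). EDEM3 had 127 and 124 CPM in the mutant rescue, 135 and 133 CPM in the wild-type rescue, 156 and 154 CPM in the knockdown, and 154 and 148 CPM in the control. Both rescues were below the control and the knockdown was not: EDEM3 was -0.31 (SE 0.034) in the mutant rescue and -0.21 (SE 0.033) in the wild-type rescue against the knockdown, and 0.041 (SE 0.033) in the knockdown against the control, not called. The difference between the rescues (-0.095, SE 0.035) was not called without mutant rescue replicate 2 (edgeR adjusted p = 0.184) or replicate 1 of the wild-type rescue (0.121), in DESeq2 (0.122) or with no filter on low counts (0.0536). EDEM2 ranged from 26.6 to 34.1 CPM, and its 1 call, -0.18 (SE 0.070) in the knockdown against the control, was lost without knockdown replicate 1 (edgeR adjusted p = 0.679) or control replicate 1 (0.273), in DESeq2 (0.224) and with the length trend removed (0.108).

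DERL2 had 45.1 and 45.3 CPM in the mutant rescue, 41.1 and 36.5 CPM in the wild-type rescue, 38.8 and 35.7 CPM in the knockdown, and 45.5 and 44.8 CPM in the control. The mutant rescue overlapped the control, and the wild-type rescue and the knockdown were lower. DERL2 was 0.28 (SE 0.059) higher in the mutant rescue than in the knockdown, and -0.28 (SE 0.059) in the knockdown against the control. Its difference between the rescues (0.23, SE 0.059) and that of the wild-type rescue from the control (-0.23, SE 0.059) both lost their calls without wild-type rescue replicate 2 (edgeR adjusted p of 0.138 and 0.124). DERL3 had 7.01 and 7.18 CPM in the mutant rescue, 5.41 and 6.02 CPM in the wild-type rescue, 4.68 and 4.83 CPM in the knockdown, and 6.82 and 6.74 CPM in the control. DERL3, the least abundant of the 35, was lowest in the knockdown: 0.58 (SE 0.15) in the mutant rescue against the knockdown, and -0.51 (SE 0.15) in the knockdown against the control. The knockdown call was lost in DESeq2 (adjusted p = 0.0632). DERL1 ranged from 92.1 to 101 CPM and was the 1 gene of the 35 with no call in any of the 6 comparisons. Its largest difference was 0.067 (SE 0.041), in the wild-type rescue against the control.

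**Figure D4:**
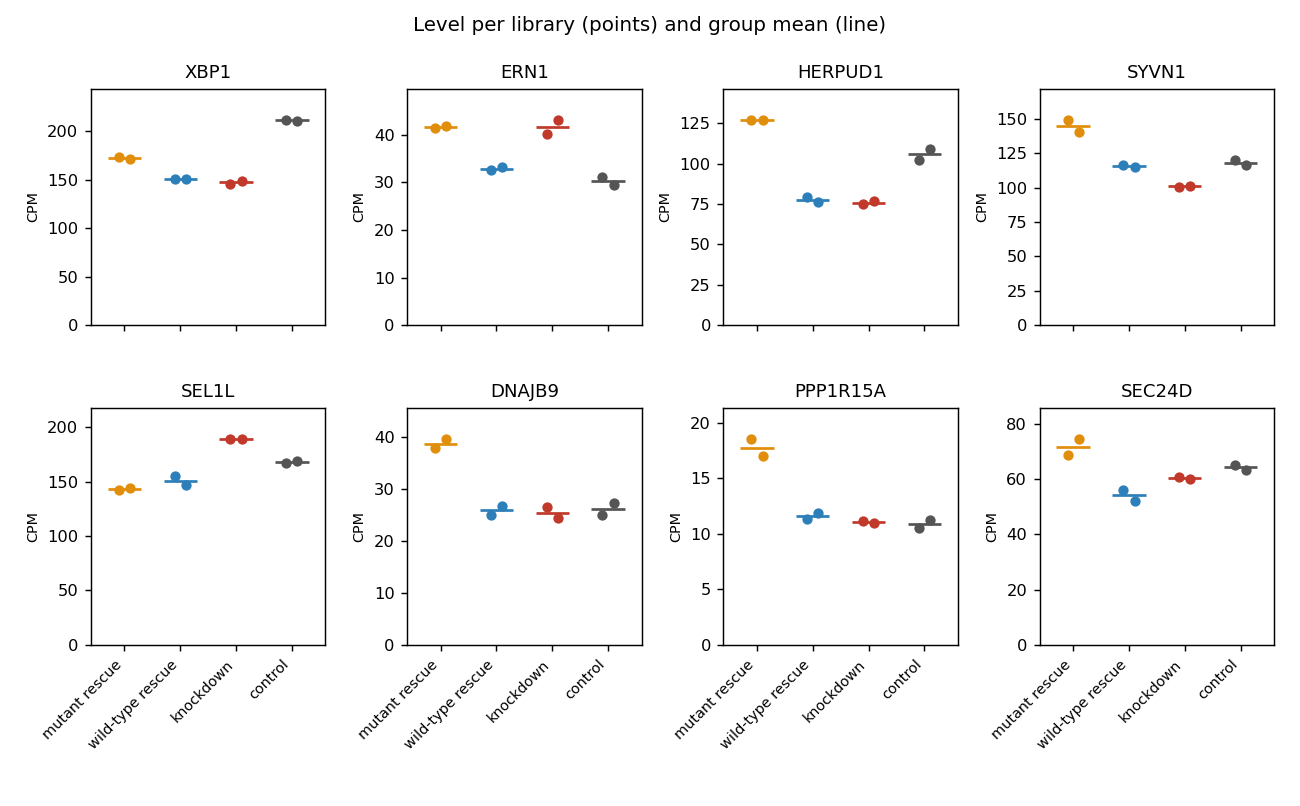
CPM of 8 genes in each library (points) with the mean of each group (line), in the mutant rescue, the wild-type rescue, the knockdown and the control, each panel on its own axis from 0. HERPUD1, SYVN1, DNAJB9, PPP1R15A and SEC24D are highest in the mutant rescue, XBP1 is highest in the control, and SEL1L in the knockdown.

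Of the 5 genes of translocation and vesicle export, SPCS3 and SEC24D separated the rescues. SPCS3 had 120.2 and 119 CPM in the mutant rescue, 153 and 146 CPM in the wild-type rescue, 157 and 146 CPM in the knockdown, and 151 and 158 CPM in the control. SPCS3, a subunit of the signal peptidase that removes signal sequences, was low in both mutant rescue libraries, and the other 3 groups overlapped. It fell in the mutant rescue by 0.32 (SE 0.035) against the wild-type rescue, by 0.34 (SE 0.035) against the knockdown and by 0.37 (SE 0.035) against the control (edgeR adjusted p of 1.05e-14, 9.82e-17 and 1.14e-18). SEC24D had 68.7 and 74.6 CPM in the mutant rescue, 56.1 and 52.3 CPM in the wild-type rescue, 60.8 and 60.1 CPM in the knockdown, and 65.3 and 63.2 CPM in the control. SEC24D, a cargo-binding subunit of the COPII coat, was highest in the mutant rescue and lowest in the wild-type rescue, with no overlap between any groups. The rescues differed by 0.41 (SE 0.050) (edgeR adjusted p = 2.37e-12). Against the knockdown, the mutant rescue was 0.25 (SE 0.049) and the wild-type rescue -0.16 (SE 0.051), the second of these lost without wild-type rescue replicate 2 (edgeR adjusted p = 0.258) or knockdown replicate 1 (0.0816) and in DESeq2 (0.0931). Its rise in the mutant rescue over the control (0.16, SE 0.049) was lost without mutant rescue replicate 2 (edgeR adjusted p = 0.165) or control replicate 2 (0.0548).

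SSR1 had 178 and 179.9 CPM in the mutant rescue, 199 and 192 CPM in the wild-type rescue, 201 and 199 CPM in the knockdown, and 238 and 229 CPM in the control. SSR1, a subunit of the translocon-associated complex, fell by 0.39 (SE 0.029) in the mutant rescue, by 0.26 (SE 0.028) in the wild-type rescue and by 0.22 (SE 0.028) in the knockdown against the control, and was -0.13 (SE 0.030) in the mutant relative to the wild-type rescue. Its -0.16 (SE 0.029) in the mutant rescue against the knockdown lost its call with the length trend removed (edgeR adjusted p = 0.387). SEC61B had 107 and 109.7 CPM in the mutant rescue, 105 and 112 CPM in the wild-type rescue, 94.6 and 96.2 CPM in the knockdown, and 108 and 112 CPM in the control. SEC61B, a subunit of the translocation channel, was lowest in the knockdown, -0.21 (SE 0.040) against the control, and the other 3 groups overlapped. It was 0.18 (SE 0.040) in the mutant rescue and 0.19 (SE 0.039) in the wild-type rescue against the knockdown, but with the length trend removed neither was called (edgeR adjusted p of 0.386 and 0.381). In that setting both rescues were called lower than the control (edgeR adjusted p of 5.56e-05 in the mutant rescue and 2.00e-04 in the wild-type rescue). The log2 fold changes were -0.17 (SE 0.039) and -0.16 (SE 0.039), beside -0.023 and -0.017, not called, with the trend left in. SEC23B, a subunit of the inner COPII coat, ranged from 172 to 218 CPM. It was lower than the control in the mutant rescue (-0.21, SE 0.030) and the wild-type rescue (-0.26, SE 0.030), and its -0.11 (SE 0.029) in the knockdown lost its call without knockdown replicate 1 (edgeR adjusted p = 0.0602) or control replicate 2 (0.117). Its -0.10 (SE 0.030) in the mutant rescue against the knockdown lost its call without mutant rescue replicate 1 (0.0572) or knockdown replicate 2 (0.102).

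The knockdown against the control and the mutant relative to the wild-type rescue share no library, so their calls can be set side by side. Of the 21 genes lower in the knockdown, 8 were higher in the mutant than in the wild-type rescue, which is 38.1% of the 21 and 57.1% of the 14: DNAJC3, PDIA4, P4HB, XBP1, MANF, SYVN1, HERPUD1 and DERL2. These shares were close to those of the whole list: 40.0% of the 35 were higher in the mutant than in the wild-type rescue, and 60.0% lower in the knockdown. Over all tested genes, 1044 had that pair of calls, 27.3% of those lower in the knockdown and 32.6% of those higher in the mutant rescue. The shares of all tested genes with each call alone were 21.0% higher in the mutant than in the wild-type rescue and 25.1% lower in the knockdown. PDIA6 and SSR1 were lower in both comparisons, HSP90B1, CALR and ERN1 were higher in both, and DNAJC10 was higher in the knockdown and lower in the mutant than in the wild-type rescue. The difference of these shares from those of all genes was not tested.

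**Figure D5:**
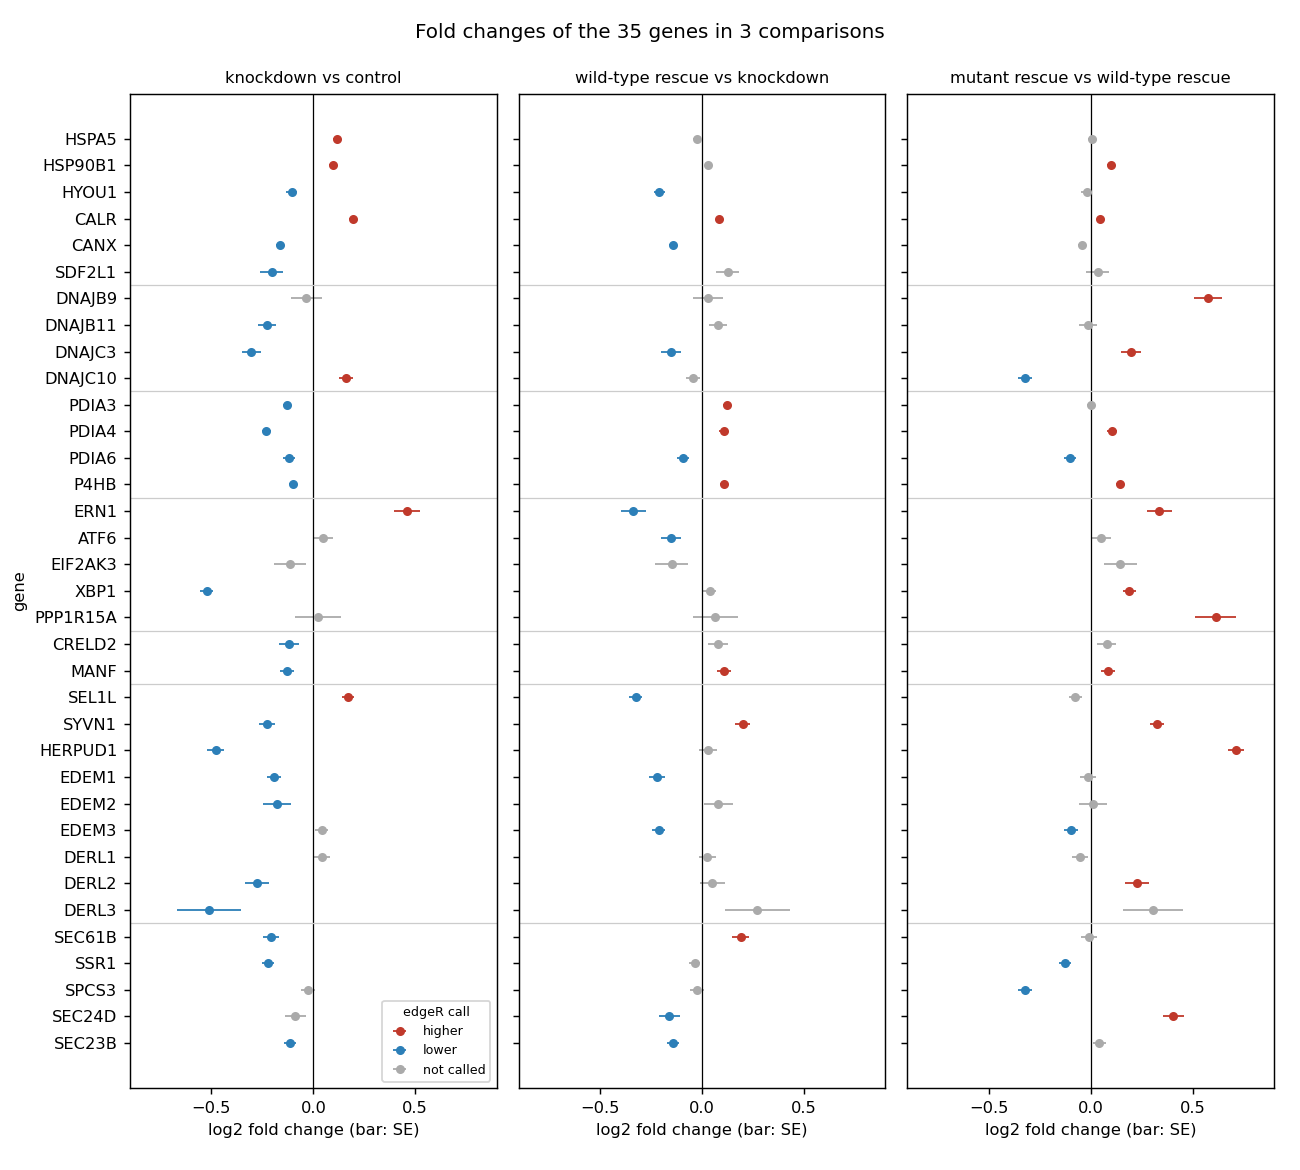
Log2 fold change of each of the 35 genes (points; bars are 1 SE) in the knockdown against the control, the wild-type rescue against the knockdown, and the mutant relative to the wild-type rescue, coloured by edgeR call. XBP1, DERL3 and HERPUD1 lie farthest left in the first panel, and HERPUD1, PPP1R15A and DNAJB9 farthest right in the third.

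Other genes of the pathway were taken from 6 lists of 131 genes, 129 of them tested, and are given by count beside the calls over all tested genes. Calls were more frequent among abundant genes, and the lists were not matched for abundance. These lists too were chosen with earlier results of these data known, so their shares are descriptive. Among genes of 20 CPM or more, 30.4% were higher and 25.8% lower in the mutant relative to the wild-type rescue. In the knockdown against the control, 28.4% of them were higher and 32.3% lower. In each list, the called genes of at least 5 CPM with the largest rise and fall are named with their log2 fold changes. In the list of stress sensors, transcription factors and PERK branch genes, 11 of 19 were higher (57.9%, against 21.0% of all tested genes) and 3 lower (15.8%, against 20.3%) in the mutant relative to the wild-type rescue, and 3 of 19 were higher (15.8%, against 22.9% of all tested genes) and 12 lower (63.2%, against 25.1%) in the knockdown against the control. CHAC1, a glutathione-degrading enzyme induced through ATF4, had 14.7 and 14.98 CPM in the mutant rescue, 6.64 and 7.07 CPM in the wild-type rescue, 5.47 and 4.58 CPM in the knockdown, and 14.2 and 16.6 CPM in the control: it was 1.11 (SE 0.12) in the mutant relative to the wild-type rescue and -1.60 (SE 0.13) in the knockdown against the control. ATF4, the transcription factor downstream of PERK, had 241 and 242 CPM in the mutant rescue, 199 and 199 CPM in the wild-type rescue, 191 and 189.5 CPM in the knockdown, and 329 and 326 CPM in the control. It was 0.28 (SE 0.027) in the mutant relative to the wild-type rescue and -0.78 (SE 0.026) in the knockdown against the control. DDIT3, which encodes the ATF4-induced factor CHOP, had 60.01 and 66.6 CPM in the mutant rescue, 33.97 and 33.7 CPM in the wild-type rescue, 30.1 and 30.6 CPM in the knockdown, and 41.7 and 38.1 CPM in the control. It was 0.91 (SE 0.057) in the mutant relative to the wild-type rescue and -0.40 (SE 0.064) in the knockdown against the control, so all 3 genes were high in the mutant rescue relative to the wild-type rescue, as PPP1R15A was. In this list, CREB3L4 had the largest fall in the mutant relative to the wild-type rescue (-0.35, SE 0.061), and MBTPS2, a protease that cleaves ATF6, the largest rise in the knockdown against the control (0.32, SE 0.047).

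In the list of COPII coat and cargo receptors, 11 of 20 were higher (55%, against 21.0% of all tested genes) and 0 lower (0%, against 20.3%) in the mutant relative to the wild-type rescue, led by SEC24A (0.40, SE 0.044), a paralog of SEC24D. In the knockdown against the control, 5 of 20 were higher (25%, against 22.9% of all tested genes) and 11 lower (55%, against 25.1%), from SEC24B (0.26, SE 0.049) to KDELR3 (-0.74, SE 0.12), a receptor that returns ER proteins from the Golgi. In the list of further degradation factors, 9 of 23 were higher (39.1%, against 21.0% of all tested genes) and 7 lower (30.4%, against 20.3%) in the mutant relative to the wild-type rescue, from FAF2 (0.35, SE 0.035) to the ubiquitin-conjugating enzyme UBE2J1 (-0.33, SE 0.061), and 6 of 23 were higher (26.1%, against 22.9% of all tested genes) and 10 lower (43.5%, against 25.1%) in the knockdown against the control, from ERLEC1 (0.28, SE 0.053) to UBE2J2 (-0.35, SE 0.046). In the list of translocon and signal peptidase genes, 5 of 20 were higher (25%, against 21.0% of all tested genes) and 4 lower (20%, against 20.3%) in the mutant relative to the wild-type rescue and 4 of 20 were higher (20%, against 22.9% of all tested genes) and 6 lower (30%, against 25.1%) in the knockdown against the control, from SEC61A2 (0.40, SE 0.070) to SSR2 (-0.34, SE 0.030), which sits in 1 complex with SSR1. Between the rescues, SEC61A2 and SRPRB, with the largest rise and fall of called genes in this list, each lost their call in another setting (SEC61A2 without mutant rescue replicate 2, edgeR adjusted p = 0.0885, and SRPRB without the same library, 0.0562).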

How the data were processed

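The authors deposited a table of raw gene counts for 8 libraries with a gene length in bases beside each gene. Per the submitters' processing notes, the tools were CASAVA, STAR 2.5.2b, featureCounts and DESeq2 with build hg19; their settings, including strand, are not given in the sources used here. Per the labels' protocols, RNA was extracted with TRIzol and libraries were made with a stranded mRNA kit.

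From these counts, edgeR 4.0.16 (R 4.3.3) was run with TMM scaling, filterByExpr (minimum count 10, minimum total 15) and a robust quasi-likelihood fit of all 8 libraries, 1 mean per group, with two-sided tests and Benjamini-Hochberg adjustment over 15289 genes. Groups were taken from the sample titles. The SE was obtained as the size of the log2 fold change over the root of its F statistic. CPM uses TMM library sizes, and TPM was computed from the deposited lengths. Libraries held 15200343 to 17893241 counts, which sets the precision of low genes. The calls of the knockdown against the control were also run on simulated counts. Every gene was given the same dispersion there, so that run cannot show how cultures vary. 

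Alternatives were no filter, DESeq2 1.42.0 size factors, the DESeq2 Wald test, fits of the 2 groups alone, a replicate block, removal of the gene length trend, and each library left out. The labels do not say whether a replicate number marks a shared culture or day. Between groups, the deviations of replicate 1 from its group's mean log CPM correlated at -0.0424 to 0.0250. Those deviations were close to counting noise, so the correlations cannot show whether the libraries were paired.

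The text gives values per library for HSPA5, HSP90B1, XBP1, ERN1, ATF6, EIF2AK3 and, in each comparison, the called genes with the 6 largest rises and 6 largest falls; of the other pathway lists (at least 5 CPM) only some of those that the rule selects are printed. The 35 genes and the lists were chosen with earlier results of these data known. Promoter sequences are from RefSeq (GRCh38.p14), and no position was converted between builds.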

Additional observations from a re-analysis of the deposited data

Results flagged for a closer look

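SEC24D is given here because its effects against the shared knockdown had opposite signs in the 2 rescues, 0.25 (SE 0.049) in the mutant rescue and -0.16 (SE 0.051) in the wild-type rescue on the log2 scale. The second of these lost its call without wild-type rescue replicate 2 (edgeR adjusted p = 0.258) or knockdown replicate 1 (0.0816). The direct test of that difference, the mutant relative to the wild-type rescue, gave 0.406 (SE 0.0499; edgeR adjusted p = 2.37e-12). Both libraries of the mutant rescue (68.7 and 74.6 CPM) were above both of the wild-type rescue (56.1 and 52.3 CPM). The groups of 2 libraries are too small for the test of a single library standing apart.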

How the results depend on the processing

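Of 168 counts of the 35 genes under 14 alternatives, 166 stayed within 1.5 times. The exceptions came from the DESeq2 Wald test: 7 lower in the wild-type rescue against the knockdown (11 in edgeR) and 3 lower in the mutant relative to the wild-type rescue (5 in edgeR); the cause was not tested. Over all genes, a count added after seeing the data, DESeq2 called 1907 in the wild-type rescue against the knockdown (3673 in edgeR) and 3991 in the mutant relative to the wild-type rescue (6307 in edgeR). It called fewer in the other comparisons too: 5001 in the knockdown against the control (7337 in edgeR) and 5651 in the mutant rescue against the knockdown (7909). Against the control it called 5225 in the wild-type rescue (7531 in edgeR) and 6822 in the mutant rescue (8993). With each library left out, the counts of higher and lower genes were 6 to 6 and 15 to 21 in the knockdown against the control, 4 to 4 and 14 to 16 in the wild-type rescue against the control, 9 to 10 and 12 to 13 in the mutant rescue against the control, 6 to 7 and 8 to 11 in the wild-type rescue against the knockdown, 16 to 18 and 9 to 11 in the mutant rescue against the knockdown, and 13 to 14 and 4 to 7 in the mutant relative to the wild-type rescue. A group left with 1 library was assumed to vary like the others. SSR1 in the wild-type rescue against the knockdown turned from -0.04 (not called) to 0.0885 (edgeR adjusted p = 0.0170) with the length trend removed. The replicate number as a block changed none of 210 calls: 27, 20, 23, 18, 27 and 19 genes were called in the 6 comparisons in the order just given. Low counts limit DERL3, PPP1R15A and EIF2AK3 most.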

Other observations

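In the list of BiP cofactors and ER oxidoreductases, 7 of 25 were higher (28%, against 22.9% of all tested genes) and 11 lower (44%, against 25.1%) in the knockdown against the control. FKBP14, a prolyl isomerase of the ER, had 74.2 and 71.6 CPM in the mutant rescue, 60.5 and 55.4 CPM in the wild-type rescue, 53.8 and 58.3 CPM in the knockdown, and 34.5 and 36.7 CPM in the control. It was 0.65 (SE 0.057) in the knockdown against the control and 0.34 (SE 0.049) in the mutant relative to the wild-type rescue on the log2 scale. CNPY3, a co-chaperone of HSP90B1 for Toll-like receptors, had the largest fall of a called gene of at least 5 CPM in the knockdown (-0.54, SE 0.064). Between the rescues, 7 of 25 were higher (28%, against 21.0% of all tested genes) and 7 lower (28%, against 20.3%) in the mutant rescue, and the peroxiredoxin PRDX4 had the largest fall of a called gene (-0.24, SE 0.036).

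In the list of N-glycosylation and glycoprotein quality control, 1 of 22 were higher (4.55%, against 22.9% of all tested genes) and 9 lower (40.9%, against 25.1%) in the knockdown against the control, from MAGT1 (0.25, SE 0.033) to OSTC (-0.47, SE 0.062), both subunits of the oligosaccharyltransferase complexes. In the mutant relative to the wild-type rescue 4 of 22 were higher (18.2%, against 21.0% of all tested genes) and 7 lower (31.8%, against 20.3%), and the called gene with the largest fall was ALG5 (-0.36, SE 0.081), which makes a sugar donor for the glycan. The called gene with the largest rise, MOGS (0.17, SE 0.049), lost its call without wild-type rescue replicate 1 (edgeR adjusted p = 0.109).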
